A study of Mus musculus with 15 samples.

Results

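The transcripts of 10 secreted growth factors of the FGF, HGF and EGF families (*Fgf2*, *Fgf7*, *Fgf10*, *Fgf18*, *Fgf21*, *Hgf*, *Hbegf*, *Areg*, *Ereg* and *Nrg1*) were followed across every condition of a microarray study of Mouse Embryonic Fibroblasts (MEFs). The genes were listed by name, and an array probe was taken for a gene when its identifier was a RefSeq transcript of it. This gave 15 probes for the 10 genes, out of 33767 probes for 23462 genes that could be named. All 10 genes had a probe bright enough to be tested.

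RNA of 5 groups of 3 cultures was hybridized to 15 one-color whole mouse 60-mer arrays, with MEFs of the established 3T3 line (a Balb/c line grown from a single clone) in all groups. Controls received no cytokine. The profibrotic group received TGFß1 at 5 ng/ml. TNFα was given at 10 ng/ml and IL-1β at 1 ng/ml, and the last group received 20 ng/ml of IL-6 with 25 ng/ml of its soluble receptor sIL-6Rα, hereafter IL-6. The study compared a proinflammatory state, set by TNFα, with a profibrotic state, set by TGFß1. Control, TNFα and TGFß1 cultures were kept for 24 h, in 3 independent experiments. The sample labels give 24 or 72 h for all arrays, and no time was found for the IL-1β and IL-6 groups alone. For the IL-1β and IL-6 groups the origin of the replicates is not given in the sources used here, so that the spread between their arrays may be technical. Their p-values rest on a spread estimated for each probe over all 15 arrays of the 5 groups, not on that of these arrays alone.

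A level is the log2 of the processed signal of a probe minus the 75th percentile of its array, which was 325 to 445 signal units before this step, so that a level of 0 is the brightness of the 75th percentile. Levels rank samples within a probe and not one probe against another. A transcript was called in a comparison at a q-value (limma, Benjamini-Hochberg over 29334 probes) below 0.05 when it also rose or fell by 1.5-fold or more, and arrays are named by their group and the number that opens their label. In RNA of a whole culture, a change in the share of cells that express a gene and a change of RNA per cell cannot be told apart.

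FGFs, HGF and the EGF family are ligands of receptor tyrosine kinases that drive growth, survival and migration of neighbouring cells. Fibroblasts are a classic source of HGF, FGF7 and FGF10, which act on epithelia through the Met receptor and the epithelial form of FGFR2. HB-EGF, amphiregulin and epiregulin bind the EGF receptor after release from the cell surface by proteases, neuregulin binds ErbB3 and ErbB4, and all of these receptors feed the ERK pathway.

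The cultures carried a fibroblast profile. All 10 fibroblast markers (*Col1a1*, *Col1a2*, *Col3a1*, *Pdgfra*, *Pdgfrb*, *Thy1*, *Vim*, *Fap*, *Dcn* and *Lum*) were well above background on all 15 arrays, while the epithelial *Cdh1* and *Krt5*, the leukocyte *Ptprc* and *Adgre1* and the endothelial *Cdh5* and *Kdr* were so on 0 arrays. Other markers on these lists were detected, the leukocyte *Itgam*, *Cd68* and *Cd3e* and the endothelial *Pecam1* on all 15 arrays, and the epithelial *Krt18* on 10, *Krt8* on 4, *Krt14* on 3 and *Epcam* on 1. The treatments left their known marks, with *Tnfaip3* higher by 3.84 with TNFα (q = 8.57e-09), *Ccn2* higher by 3.08 with TGFß1 (q = 0.000204), *Cxcl1* higher by 4.14 with IL-1β (q = 1.48e-06) and *Socs3* higher by 2.39 with IL-6 (q = 0.00157), all as log2 fold-changes. The arrays lay on 2 slides, each read at 1 scan time, and arrays of 1 group correlated at r = 0.987 to 0.991 within a slide (5 pairs) and 0.981 to 0.987 between slides (10 pairs). Slide 1 held controls 1 and 11, TNFα 14, TGFß1 7, IL-1β 5 and 10 and IL-6 3 and 8, and slide 2 held the others.

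The promoters of 5 members called with TGFß1 are printed here, *Fgf2*, *Fgf21* and *Areg*, which rose, and *Fgf7* and *Fgf10*, which fell. Each line gives the 250 bases before the transcription start in RefSeq's annotation of GRCm38.p6, with capitals for matches on either strand to the letters TGACGTCA (the cAMP response element, CRE), TGATGCAA (a site of the stress factor ATF4) or GGG and CC with any 5 bases between them (a loose form of the NF-κB site).
*Fgf2* promoter, chr3:37348403-37348652, plus strand: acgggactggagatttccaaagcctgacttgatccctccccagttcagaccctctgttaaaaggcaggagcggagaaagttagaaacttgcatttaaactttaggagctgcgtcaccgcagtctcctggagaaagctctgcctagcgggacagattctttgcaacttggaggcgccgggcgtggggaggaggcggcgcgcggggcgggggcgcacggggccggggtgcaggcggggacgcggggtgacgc
*Fgf21* promoter, chr7:45615491-45615740, minus strand: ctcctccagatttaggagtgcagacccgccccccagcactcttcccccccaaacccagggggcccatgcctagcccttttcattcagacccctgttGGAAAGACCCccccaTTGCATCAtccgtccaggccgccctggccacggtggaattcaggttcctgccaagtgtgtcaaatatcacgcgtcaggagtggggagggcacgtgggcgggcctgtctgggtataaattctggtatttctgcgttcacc
*Areg* promoter, chr5:91139349-91139598, plus strand: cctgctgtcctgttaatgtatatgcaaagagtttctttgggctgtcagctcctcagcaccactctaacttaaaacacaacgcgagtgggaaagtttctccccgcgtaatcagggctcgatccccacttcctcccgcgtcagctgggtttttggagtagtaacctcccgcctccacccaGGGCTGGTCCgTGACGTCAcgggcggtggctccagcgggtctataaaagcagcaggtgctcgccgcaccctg
*Fgf7* promoter, chr2:126034408-126034657, plus strand: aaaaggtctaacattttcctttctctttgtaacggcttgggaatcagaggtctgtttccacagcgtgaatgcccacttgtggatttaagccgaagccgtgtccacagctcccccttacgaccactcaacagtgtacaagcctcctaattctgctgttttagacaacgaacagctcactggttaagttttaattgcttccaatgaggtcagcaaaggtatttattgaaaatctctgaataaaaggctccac
*Fgf10* promoter, chr13:118714449-118714698, plus strand: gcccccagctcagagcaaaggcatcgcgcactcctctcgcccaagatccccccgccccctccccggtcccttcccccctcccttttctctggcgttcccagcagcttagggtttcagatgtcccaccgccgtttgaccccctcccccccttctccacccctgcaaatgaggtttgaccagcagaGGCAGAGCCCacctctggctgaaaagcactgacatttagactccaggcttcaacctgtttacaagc

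Among 32851 promoters cut in the same way, 1.55% held the CRE letters, 0.791% the ATF4 letters and 45.8% the NF-κB letters. *Areg* held the CRE letters 61 bases before its start, close to an NF-κB match whose first base lay 72 bases before it, and *Fgf21* held the ATF4 letters 139 bases before its start. Neither sequence was found in the other promoters of the members searched, which were 8 windows of 7 genes (those above, *Fgf18* and 2 starts of *Hgf*). *Hbegf*, *Ereg* and *Nrg1* had no window here and were not searched. The NF-κB letters lay in 5 of the 8 windows, *Fgf10*, *Fgf18*, *Fgf21*, *Areg* and 1 start of *Hgf*, and not in the window of *Fgf7*. The AP-1 letters TGANTCA, present in 6.75% of all promoters, lay in 0 of the 8, and the short SMAD letters CAGAC, present in 42.2%, in 6 of the 8 (*Fgf2*, *Fgf7*, *Fgf18*, *Fgf21* and both starts of *Hgf*). These matches describe the sequence and show no binding.

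TGFß1 moved 8 of the 10 growth factors, TNFα moved 3, IL-1β 1 and IL-6 0. With TGFß1, *Fgf2*, *Fgf18*, *Fgf21*, *Hbegf* and *Areg* rose and *Fgf7*, *Fgf10* and *Nrg1* fell. *Fgf2* was tested through its TNFα and TGFß1 arrays alone, where it is high, so that its call is no independent support. The share of all probes called with TGFß1 was 17.9%. With TNFα, *Fgf7*, *Hbegf* and *Ereg* rose and 0 members fell, where 10.0% of all probes were called. With IL-1β only *Fgf7* rose among the members, where 0.232% of all probes were called. With IL-6 the count was 0 by limma (1 member, *Fgf7*, at an unadjusted p under 0.05), where 0.0580% of all probes were called. The median log2 fold-change over the 10 members was 1.00 with TGFß1, 0.26 with TNFα, 0.26 with IL-1β and 0.08 with IL-6, beside 0.071, 0.039, 0 and 0 over all probes tested. These 4 comparisons share the 3 control arrays.

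**Figure D1:**
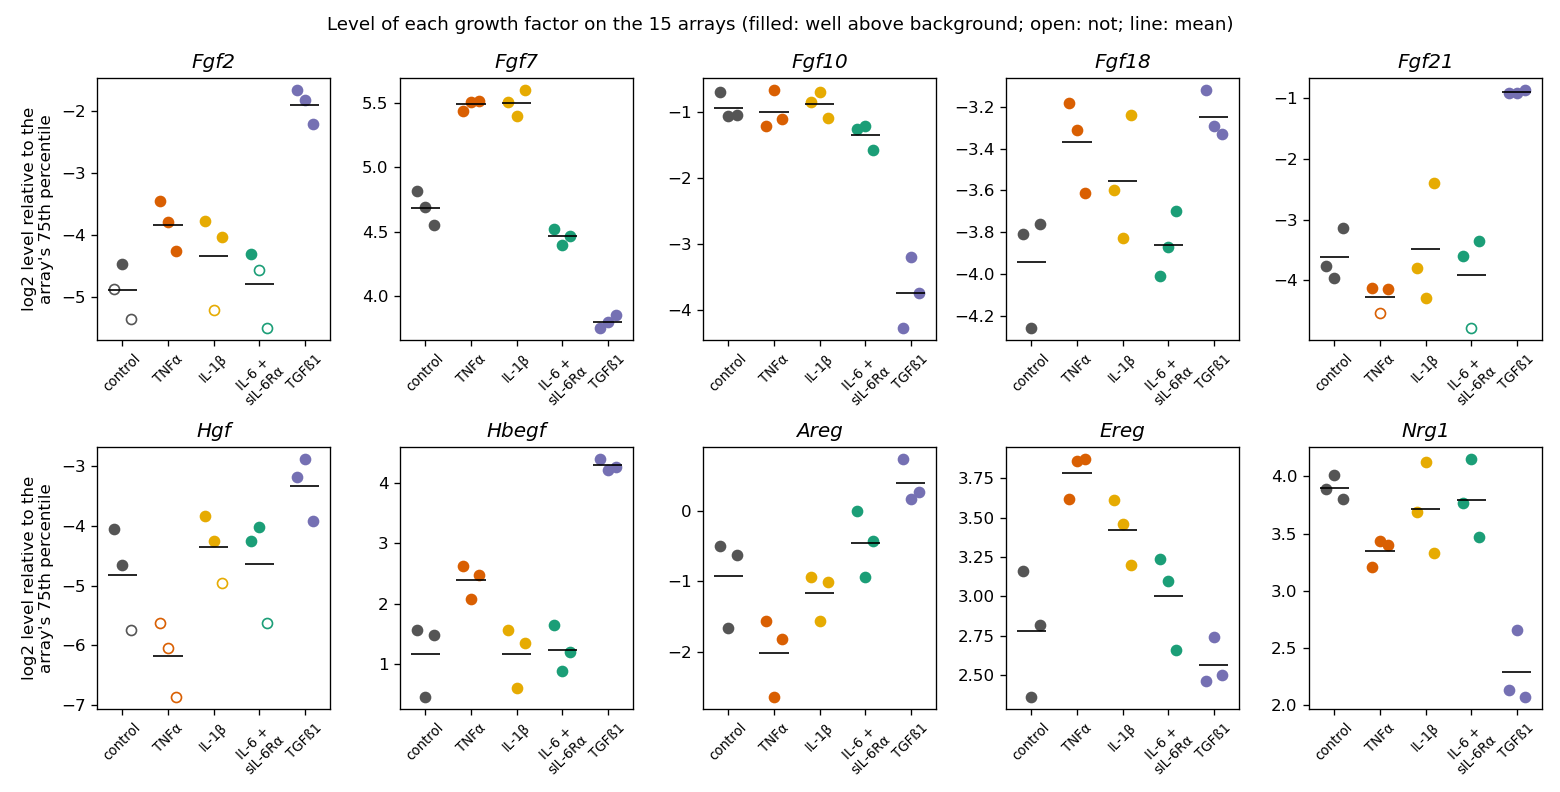
Log2 level (relative to the 75th percentile of the array) of each of the 10 growth factors on the 15 arrays. Each point is 1 array in the order of its label number, filled where the probe was well above background and open where it was not, and the line is the mean of 3 arrays. The TGFß1 arrays stand apart from all others in *Fgf2*, *Fgf21*, *Hbegf* and *Areg* (above) and in *Fgf7*, *Fgf10* and *Nrg1* (below). The 3 TNFα arrays of *Hgf* are open. The vertical axes differ between genes.

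*Fgf7* encodes keratinocyte growth factor, a fibroblast product that acts on epithelial cells. Its levels were 4.82, 4.69 and 4.55 in controls 1, 6 and 11, and 5.44, 5.51 and 5.52 on the TNFα arrays 4, 9 and 14. With IL-1β they were 5.51, 5.40 and 5.60, and with TGFß1 3.75, 3.80 and 3.85. The TNFα and IL-1β arrays thus overlapped with each other and lay above every control, while every TGFß1 array lay below every control. *Fgf7* rose 1.74-fold with TNFα (log2 fold-change 0.80 ± 0.10 SE, q = 0.000238) and 1.76-fold with IL-1β (0.81 ± 0.10, q = 0.00329), and fell 1.86-fold with TGFß1 (-0.89 ± 0.10, q = 7.49e-05). The IL-6 levels were 4.52, 4.40 and 4.47, just below the lowest control, and the difference of -0.23 was not called (q = 1). Within slide 1 and slide 2 the differences from control were 0.83 and 0.78 for TNFα, 0.77 and 0.91 for IL-1β, and -0.89 and -0.90 for TGFß1. *Fgf7* was the only member called in opposite directions against control, and the only one called with IL-1β. The IL-1β call was lost in a fit of the IL-1β and control arrays alone (log2 fold-change 0.81, q = 0.339; q = 0.000839 to 0.339 over 13 alternatives).

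*Fgf10*, the other FGF with a mesenchymal origin and an epithelial target, fell with TGFß1 and was not called with the other cytokines. Its levels were -0.70, -1.06 and -1.05 in controls 1, 6 and 11, and -4.28, -3.20 and -3.75 on the TGFß1 arrays 2, 7 and 12, with no overlap. This is a 7.01-fold fall (log2 fold-change -2.81 ± 0.24 SE, q = 1.17e-05), and it was -2.33 within slide 1 and -2.96 within slide 2. The TGFß1 arrays were dim, and with normexp background correction the log2 fold-change shrank to -1.46, which was still called. The TNFα levels (-1.21, -0.67 and -1.11) and the IL-1β levels (-0.85, -0.69 and -1.09) overlapped the controls, with differences of -0.06 (95% interval -0.58 to 0.47) and 0.06 (-0.46 to 0.59). The IL-6 levels (-1.26, -1.21 and -1.57) lay below all controls, by 0.41 on average, which was not called (95% interval of the difference -0.94 to 0.11). The other *Fgf10* probe was above background on 0 of 15 arrays and gives no level.

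*Fgf2*, the basic FGF that fibroblasts make and respond to, rose with TGFß1. Its levels were -4.87, -4.47 and -5.36 in controls 1, 6 and 11, of which only control 6 was well above background, and -1.67, -1.83 and -2.21 on the TGFß1 arrays. The groups did not overlap, and the fitted rise, which rests on control levels of which 1 of 3 was detected, was 7.98-fold (log2 fold-change 3.00 ± 0.40 SE, q = 0.000237). On the other probe of *Fgf2* 0 of 3 control arrays were well above background, and the TGFß1 level was at least 10.0-fold higher, taking the dimmest detected signal of each control array as its ceiling, or its own where that was higher (levels -5.46, -5.13 and -5.29 in controls and -1.42, -1.33 and -1.73 with TGFß1, q = 0.000393). The TNFα levels of the first probe (-3.46, -3.79 and -4.26) also lay above every control, and TNFα gave 2.09-fold (1.06 ± 0.40, q = 0.108), which was not called. A fit of the control, TNFα and TGFß1 arrays alone gave the same 1.06 with q = 0.0449 (q = 0.0449 to 0.219 over 13 alternatives). With IL-1β the levels of -3.78, -5.22 and -4.04 overlapped those of the controls. Both *Fgf2* probes were tested through their TNFα and TGFß1 arrays alone, the only groups detected on 3 of 3 arrays. Their q-values against control are thus no independent support for higher levels with TNFα or TGFß1.

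*Fgf21*, a hormone-like FGF that needs the coreceptor β-Klotho, also rose with TGFß1. Its levels were -3.76, -3.97 and -3.14 in controls, and the TGFß1 arrays lay close together at -0.91, -0.92 and -0.87. The rise was 6.6-fold (log2 fold-change 2.72 ± 0.45 SE, q = 0.00102). The TNFα levels were -4.12, -4.54 and -4.15, all below the controls, and the difference of -0.65 was not called (q = 0.403). The IL-1β levels of *Fgf21* spread widely, with -3.79 and -4.29 on arrays 5 and 10 of slide 1 and -2.39 on array 15 of slide 2.

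*Fgf18*, an FGF known from bone, cartilage and lung, changed little. Its levels were -3.81, -4.26 and -3.76 in controls and -3.12, -3.29 and -3.33 with TGFß1, without overlap, and the rise was 1.61-fold (log2 fold-change 0.69 ± 0.18 SE, q = 0.016). The call was lost without control 6 (0.53, q = 0.0627) and without TGFß1 2 (0.63, q = 0.0642), and the q-value over the 6 fits that left out 1 array ran from 0.0209 to 0.0642. With normexp background correction the rise was 0.34 (q = 0.04; 0.0103 to 0.0436 over 14 alternatives), under the required fold-change. TNFα gave levels of -3.18, -3.31 and -3.61, all above the controls, and 1.49-fold (0.57 ± 0.18, q = 0.0592), which was not called. Without TNFα 14 this was 0.70 with q = 0.0461 (0.0461 to 0.216 over the fits without 1 array).

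*Hgf*, the ligand of Met, was near the detection limit. On the first probe the levels were -4.05, -4.66 and -5.75 in controls 1, 6 and 11 and -3.18, -2.88 and -3.91 with TGFß1, whereas the TNFα levels of -5.62, -6.05 and -6.87 were above background on 0 of 3 arrays. TGFß1 gave 2.82-fold against controls (log2 fold-change 1.49 ± 0.52 SE, q = 0.0556), with all TGFß1 arrays above all controls, which was not called. It was called with the slide as a block (1.61, q = 0.0341), with the slide and the run of label numbers as blocks (1.54, q = 0.000223) and without control 1 (1.88, q = 0.0318), and q ran from 0.000223 to 0.45 over 13 alternatives and from 0.0318 to 0.2 over the fits without 1 array. Against TGFß1, the TNFα level was at least 2.68-fold lower (q = 0.00242). This probe was tested through its TGFß1 arrays alone, the only group detected on 3 of 3 arrays. Its q-values are thus no independent support for a higher TGFß1 level. Against control the TNFα difference of -1.36 (q = 0.118) was not called and no bound above 1 could be given. It was called lower with the slide and run blocks (-1.31, q = 0.000935) and with the mean of both probes (-1.83, q = 0.0384), and q ran from 0.000935 to 0.566 over 12 alternatives.

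The other *Hgf* probe, for a different RefSeq transcript, was not tested, since no group had 3 arrays well above background. Its levels were -4.07, -3.54 and -6.35 in controls and -7.00, -6.76 and -7.13 with TNFα, again with 0 TNFα arrays detected and all of them below the controls. With TGFß1 its levels were -4.60, -4.83 and -5.47, detected on 0 of 3 arrays and overlapping the controls. With TGFß1 the probes thus stood differently to their controls, above them on the first probe and not on the other, and the difference between the probes was not tested.

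**Figure D2:**
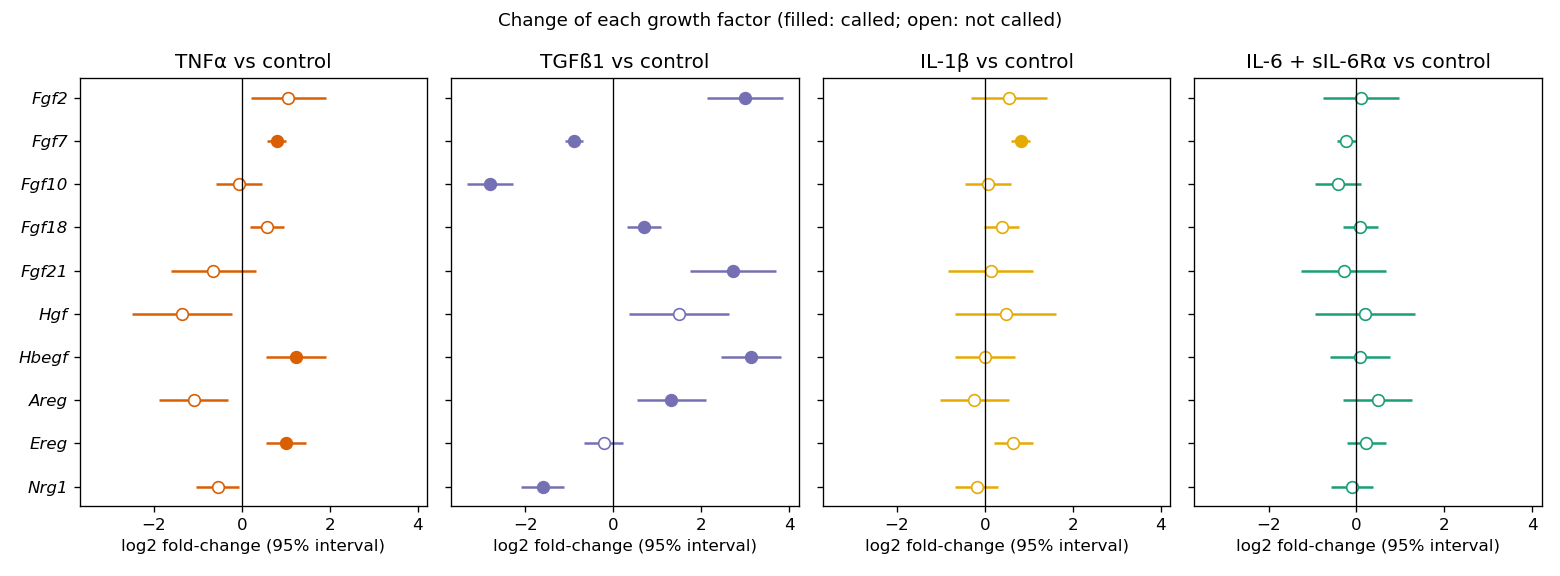
Log2 fold-change of each growth factor against control with its 95% interval, for the 4 treatments. Filled points were called (q-value below 0.05 and absolute fold-change of at least 1.5) and open points were not. TGFß1 has 5 filled points above 0 and 3 below, TNFα has 3 above, IL-1β has *Fgf7* alone and IL-6 has none. The 4 panels share the 3 control arrays.

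*Hbegf*, which encodes a heparin-binding ligand of the EGF receptor, rose with both TNFα and TGFß1. Its levels were 1.56, 0.45 and 1.48 in controls 1, 6 and 11, 2.62, 2.07 and 2.48 on the TNFα arrays 4, 9 and 14, and 4.39, 4.21 and 4.27 on the TGFß1 arrays 2, 7 and 12. The 3 groups did not overlap. TGFß1 gave 8.73-fold (log2 fold-change 3.13 ± 0.32 SE, q = 3.47e-05). TNFα gave 2.34-fold (1.23 ± 0.32, q = 0.0231). The TNFα call was lost without control 6 (0.87, q = 0.0737), without TNFα 4 (1.11, q = 0.0961) and without TNFα 14 (1.19, q = 0.0661), with q from 0.0233 to 0.0961 over the 6 fits without 1 array. It was also lost in a fit of the TNFα and control arrays alone (1.23, q = 0.0745) and without a filter on dim probes (1.23, q = 0.0539; 0.000152 to 0.0745 over 14 alternatives). The IL-1β levels (1.57, 0.60 and 1.34) and IL-6 levels (1.64, 0.88 and 1.20) overlapped the controls, with differences of 0.01 (95% interval -0.68 to 0.69) and 0.07 (-0.61 to 0.76).

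*Areg*, which encodes amphiregulin, rose with TGFß1, and its TNFα levels were lower than the controls on average but overlapped them. Its levels were -0.49, -1.67 and -0.62 in controls 1, 6 and 11 and 0.74, 0.18 and 0.28 with TGFß1, without overlap. The rise was 2.50-fold (log2 fold-change 1.32 ± 0.36 SE, q = 0.0192). The call was lost without control 6 (0.95, q = 0.0759) and without TGFß1 2 (1.16, q = 0.0784; 0.0178 to 0.0784 over the fits without 1 array), and the difference was 0.73 within slide 1 and 2.18 within slide 2. The TNFα levels of -1.57, -2.65 and -1.82 overlapped those of control 6, and the difference of -1.09 was not called (q = 0.0708). It was called with the slide and the run of label numbers as blocks (-1.02, q = 0.000291; 0.000291 to 0.168 over 14 alternatives) and without control 6 (-1.46, q = 0.0205; 0.0205 to 0.237 over the fits without 1 array).

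*Ereg*, which encodes epiregulin, rose with TNFα. Its levels were 3.16, 2.36 and 2.82 in controls and 3.62, 3.86 and 3.87 with TNFα, without overlap, which is 2.00-fold (log2 fold-change 1.00 ± 0.21 SE, q = 0.00707). The IL-1β levels of 3.61, 3.46 and 3.20 also lay above every control, and 1.56-fold (0.64 ± 0.21) was not called (q = 0.686). With the slide and run blocks this difference was 0.64 with q = 0.0288 (0.0288 to 1 over 13 alternatives). With TGFß1 the levels of 2.46, 2.74 and 2.50 overlapped the controls, and the difference was -0.21 (95% interval -0.66 to 0.23).

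*Nrg1*, which encodes neuregulin, fell with TGFß1. On the first probe its levels were 3.89, 4.01 and 3.80 in controls and 2.13, 2.66 and 2.07 with TGFß1, without overlap, a 3.06-fold fall (log2 fold-change -1.61 ± 0.22 SE, q = 0.000318). The other probe for the same transcript fell too (0.60, 0.34 and 0.41 in controls, -0.97, -0.48 and -1.16 with TGFß1, -1.32 ± 0.24, q = 0.00195). A probe for another, predicted transcript did not move with it, with -2.70, -1.68 and -2.45 in controls and -1.37, -2.27 and -1.63 with TGFß1 (0.52 ± 0.51, q = 0.493), and the mean of all 3 probes fell by 0.81 (q = 0.00261). The TNFα levels of the first probe (3.21, 3.44 and 3.40) lay below all controls by 0.55 on average, which was not called (q = 0.134).

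TNFα and TGFß1 were then compared directly, a comparison that uses no control array. Of the 10 members, 9 differed, where 11.8% of all probes were called. *Fgf7* (3.23-fold, q = 3.85e-07), *Fgf10* (6.72-fold, q = 8.33e-06), *Ereg* (2.33-fold, q = 0.00134) and *Nrg1* (2.08-fold, q = 0.00592) were higher with TNFα. *Fgf2* (3.83-fold, q = 0.00506), *Fgf21* (10.3-fold, q = 0.000213), *Hbegf* (3.72-fold, q = 0.00121), *Areg* (5.33-fold, q = 0.000559) and *Hgf* (the bound given above) were higher with TGFß1. The *Hgf* probe was tested through its TGFß1 arrays alone. In each of these 9 genes all arrays of one treatment lay above all arrays of the other. *Fgf18* was the exception, with a difference of -0.12 on the log2 scale (95% interval -0.51 to 0.28). The ligands of the EGF receptor therefore parted, *Hbegf* and *Areg* being higher with TGFß1 and *Ereg* with TNFα.

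IL-1β was compared with TNFα, as both are proinflammatory cytokines, and 1 of the 10 members differed, where 4.69% of all probes were called. *Hbegf* was 2.33-fold lower with IL-1β (log2 fold-change -1.22 ± 0.32 SE, q = 0.0421). The call was lost without any 1 of TNFα 4, 9 or 14, IL-1β 10 or IL-1β 15 (q = 0.0409 to 0.197 over the 6 fits without 1 array, -1.43 to -0.94), in a fit of both groups alone (q = 0.0876) and without a filter on dim probes (q = 0.0954). *Fgf7* gave a difference of 0.01 (95% interval -0.20 to 0.23). For *Hgf*, the IL-1β level was at least 1.32-fold higher, which was not called (q = 0.0647). With the mean of both probes *Hgf* was called (2.33, q = 0.023). With the slide and run blocks *Hgf* (1.78, q = 0.000317) and *Areg* (0.78, q = 0.0022) were called as higher with IL-1β, and their q-values over the alternatives reached 0.508 and 0.425.

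Ordered by mean level, TGFß1 was the highest group for *Fgf2*, *Fgf18*, *Fgf21*, *Hgf*, *Hbegf* and *Areg*, and the lowest for *Fgf7*, *Fgf10*, *Ereg* and *Nrg1*. The gap between TGFß1 and the next group was free of overlap for *Fgf2* (1.94), *Fgf21* (2.59), *Hbegf* (1.90), *Areg* (0.85), *Fgf7* (0.67), *Fgf10* (2.40) and *Nrg1* (1.06), on the log2 scale. It was not free of overlap for *Fgf18*, *Hgf* and *Ereg*. Neighbours among the other groups mostly overlapped. The exceptions were TNFα above control (0.80) and control above IL-6 (0.23) for *Fgf7*, and TNFα above IL-6 for *Fgf10* (0.35) and *Hbegf* (1.15). They also included IL-1β above TNFα for *Areg* (0.85) and TNFα above IL-1β for *Ereg* (0.36). In *Fgf10* the nearest arrays, TNFα 4 and IL-6 8, both read -1.21 and parted only below this rounding.

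The levels of several members also followed the label numbers of the arrays. The numbers can be cut into 3 runs of 5 (1 to 5, 6 to 10, 11 to 15) that hold every group once, and the labels do not say whether a run is an experiment. In *Hbegf* and *Areg* the array of run 6 to 10 was the lowest and that of run 1 to 5 the highest in 5 of 5 groups. In *Fgf21* the array of run 6 to 10 was the lowest in 5 of 5 groups, and in *Hgf* that of run 11 to 15 was, on both probes. In *Nrg1* the array of run 6 to 10 was the highest in 5 of 5 groups on the first probe and in 2 of 5 on the other probe of that transcript. *Fgf7* showed no run that was lowest or highest in more than 3 of 5 groups. Across all tested probes, with group means and slide removed, arrays of the same run correlated at r = 0.114 to 0.671 (30 pairs) and arrays of different runs at -0.564 to 0.259 (60 pairs). Without removal of the slide the ranges were -0.602 to 0.826 and -0.75 to 0.597. Removal of group means makes the deviations within a group cancel, so that the same-run and different-run ranges are not independent of each other.

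**Figure D3:**
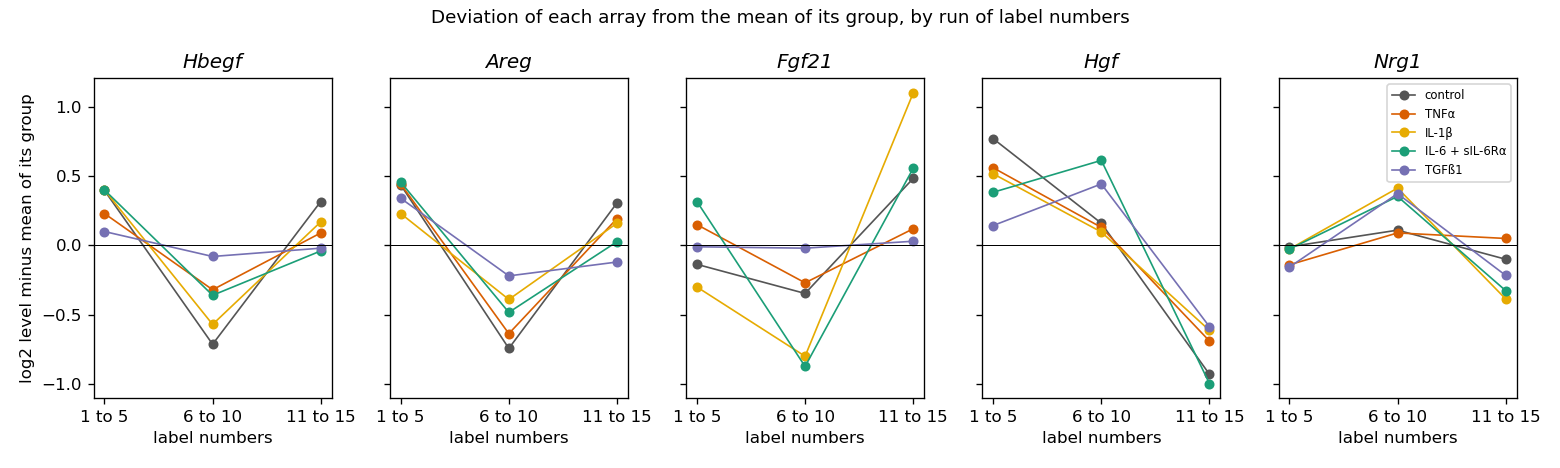
Log2 level of each array minus the mean of its group, by run of label numbers, for *Hbegf*, *Areg*, *Fgf21*, *Hgf* and *Nrg1*. Each color is 1 of the 5 groups and each point 1 array, and lines only join the arrays of a group. The points of run 6 to 10 are the lowest of their group in *Hbegf*, *Areg* and *Fgf21*, and those of run 11 to 15 in *Hgf*.

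The other parts of these pathways were described from lists of genes. Of 17 other FGF ligands 4 were tested and, by limma, 0 were called with TNFα or TGFß1 (1 in each at an unadjusted p under 0.05). The shares called over all probes were 10.0% and 17.9%. The paracrine *Fgf1* was 2.83 higher with TNFα than with TGFß1 on the log2 scale (q = 0.00364). Of 7 other EGF-family ligands only *Egf* was tested, and its difference with TGFß1 was -0.41 (q = 0.0384), under the required fold-change.

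Of 9 FGF receptors and cofactors 5 were tested. *Fgfr1*, the main FGF receptor of mesenchymal cells, rose with TGFß1 (log2 fold-change 1.41 ± 0.14 SE, q = 2.81e-05), and with TNFα it gave 0.36 (q = 0.116). *Fgfrl1*, a receptor that lacks the kinase domain, fell with TNFα (-1.86 ± 0.25, q = 0.000473) and with TGFß1 (-1.20 ± 0.25, q = 0.005). *Fgfbp3*, an FGF carrier protein, fell with both as well (-1.81 ± 0.36, q = 0.0061, and -1.18 ± 0.36, q = 0.0312). The coreceptor gene *Klb* was not among the tested. Of 8 genes of the HGF axis 5 were tested, and *Mst1r*, the receptor of the HGF-like protein, fell with TGFß1 (-1.20 ± 0.24, q = 0.00408), while *Met* gave -0.45 with TNFα (q = 0.0559) and -0.23 with TGFß1 (q = 0.254).

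Of 11 genes for EGF receptors, shedding and inhibitors 8 were tested, and 0 were called with TGFß1 by limma (2 at an unadjusted p under 0.05). The share called over all probes was 17.9%. *Egfr* gave 0.21 with TNFα (95% interval -0.45 to 0.87) and 0.05 with TGFß1 (-0.61 to 0.71), and *Adam17*, the protease that releases most EGF receptor ligands, gave 0.18 and -0.12. With TNFα the EGF receptor inhibitor *Errfi1* rose (0.68 ± 0.19, q = 0.0322) and *Lrig3* fell (-0.95 ± 0.18, q = 0.00465).

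Of 19 feedback and target genes of the ERK pathway 18 were tested, and 6 rose and 4 fell with TGFß1, while 2 rose and 3 fell with TNFα. Over all probes 17.9% were called with TGFß1 and 10.0% with TNFα. With TGFß1 the ERK phosphatase *Dusp5* rose (log2 fold-change 2.54 ± 0.48 SE, q = 0.00254). *Dusp4*, also among the 6, was at least 4.06-fold higher (q = 0.000484), a bound, since 0 control arrays detected it. It was tested through its TGFß1 arrays alone, where it is high, so that its call is no independent support. *Myc* rose as well (1.53, q = 0.0198) and the ETS factor *Etv1* fell (-1.65, q = 0.00416). With TNFα the early response gene *Ier3* rose (2.33 ± 0.20, q = 1.31e-05), and the inhibitor *Spry1* (-1.71 ± 0.44, q = 0.0226) and *Etv1* (-1.21 ± 0.34, q = 0.0348) fell. The AP-1 subunit gene *Fosl1* rose with TNFα (0.99, q = 0.0137). *Dusp6*, a common readout of FGF signaling, gave -0.05 with TNFα and -0.18 with TGFß1, its arrays overlapping the controls. *Met*, *Klb*, *Egf*, *Egfr*, *Adam17* and *Dusp6*, which were not called, were named for their roles after their values were seen. The median over the 18 genes was -0.03 with TNFα and 0.08 with TGFß1, beside 0.039 and 0.071 over all probes. With IL-1β and IL-6 0 of the 18 were called by limma (2 and 4 at an unadjusted p under 0.05), where 0.232% and 0.0580% of all probes were called.

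**Figure D4:**
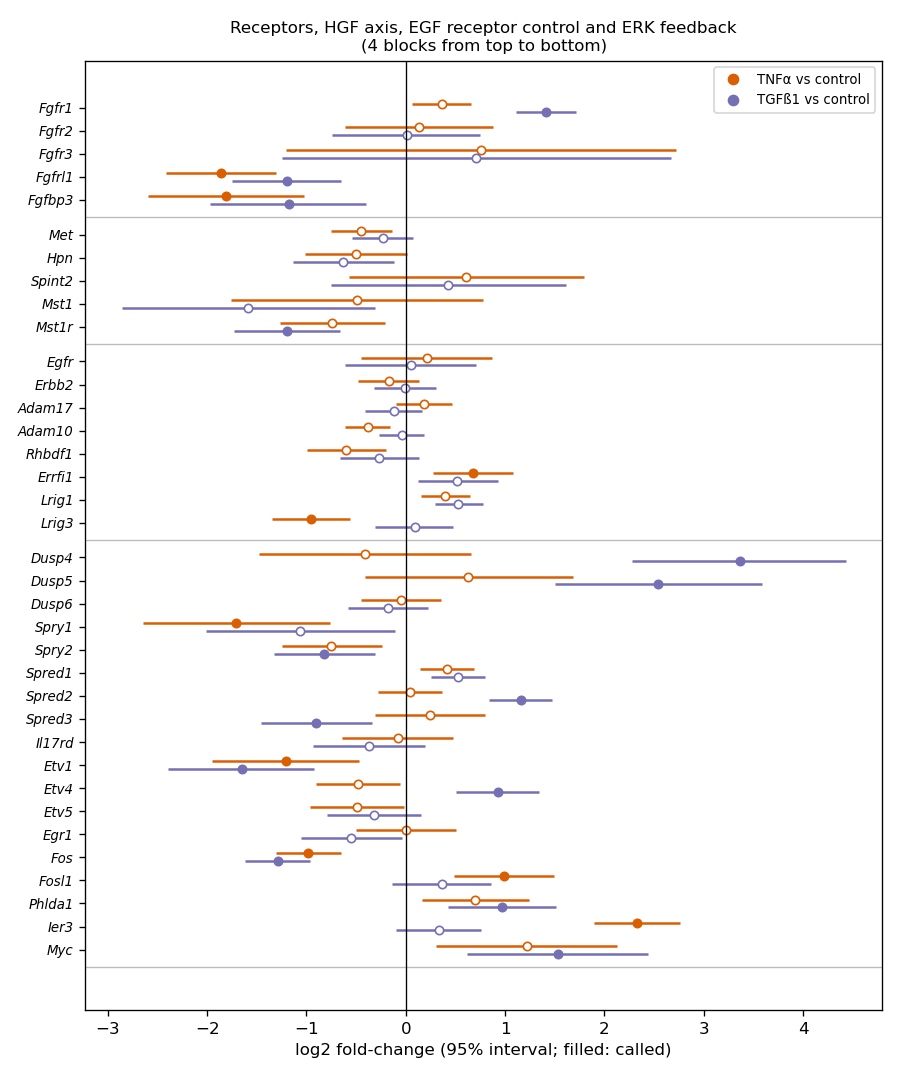
Log2 fold-change against control with its 95% interval for the tested genes of FGF receptors and cofactors, the HGF axis, EGF receptor control, and ERK feedback and targets, in 4 blocks from top to bottom. Orange is TNFα and violet is TGFß1, and filled points were called. *Fgfr1* and *Dusp5* are filled to the right with TGFß1, *Fgfrl1* and *Fgfbp3* are filled to the left with both, and the values of *Dusp4* rest on control arrays that did not detect it.

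The genes with the most similar profile over the 15 arrays were listed among 13477 genes by Pearson's r, as a description, since points of a group share its treatment. For *Fgf7* they were the chemokine *Cxcl1* (r = 0.971), *Fndc7* (0.962) and *Nid1* (0.953), and for *Hbegf* *2310057M21Rik* (0.988), the activin subunit gene *Inhba* (0.987) and *Dyrk3* (0.986). For *Ereg* they were *Prrx1* (0.95), the NF-κB subunit gene *Nfkb1* (0.945) and *Grb14* (0.945), and those given for *Areg* were *Runx2* (0.951) and *Galr2* (0.947). *Fgf2* ran with *Nfatc1* (0.949), *Fgf10* with *Rassf2* (0.978), *Fgf21* with *Ppp1r13l* (0.96), *Hgf* with *Rnf122* (0.954) and *Nrg1* with *Sqor* (0.983). The highest value for *Fgf18* was 0.883, for *Psmg4*.

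Markers of cell types also moved with TGFß1 and TNFα and are given beside the changes above. *Krt8* was detected on 3 of 3 TGFß1 arrays and 0 of 3 control arrays, and was at least 3.36-fold higher with TGFß1 (q = 0.0176). It was tested through its TGFß1 arrays alone, so that its call is no independent support. The summed level of the 6 epithelial markers, in multiples of the 75th percentile, was 0.253 to 0.654 on TGFß1 arrays and 0.121 to 0.251 on controls. For the 10 fibroblast markers it was 1050 to 1340 and 1010 to 1260, and *Cdh1* was detected on 0 arrays. The sums add probes of unlike brightness, some of them undetected, so that they compare groups within a list and not 1 list with another. With TNFα the epithelial sum was 0.0899 to 0.114, below every control, and the fibroblast sum was 821 to 1070, overlapping the controls. Of the 10 fibroblast markers, 1 was called higher (*Dcn*, 1.91) and 3 lower (*Col1a1*, -0.79, *Col1a2*, -0.66, and *Col3a1*, -2.17) with TNFα, and 2 higher (*Col1a1*, 0.61, and *Pdgfrb*, 0.68) and 2 lower (*Pdgfra*, -1.98, and *Dcn*, -1.80) with TGFß1, as log2 fold-changes. Between TNFα and TGFß1, 3 of the 10 were higher and 4 lower with TNFα. In these 3 comparisons 10.0%, 17.9% and 11.8% of all probes were called. The part of these markers in the TGFß1 and TNFα values was not tested. The leukocyte sum was 11.5 to 20.4 with TGFß1, 11.4 to 22.3 with TNFα and 9.95 to 21.3 in controls.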

How the data were processed

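The authors labelled RNA with Cyanine 3, hybridized it to one-color arrays and extracted the spots with Agilent Feature Extraction 10.7.3.1. The deposited scanner files give spot intensities, as processed signal after the software's background subtraction, with no normalization between arrays. The series-wide table repeats these signals (largest difference 0). The log2 values were computed here from the deposited intensities. Of 62976 spots, 59305 were not controls, for 56605 probes. Non-uniform spots and population outliers were dropped. The remaining spots of each probe gave a mean log2 signal, from which the 75th percentile of its array was taken off. Intensities are not counts, so that precision is set by how many arrays there are and by the spread of each probe between arrays. A probe was tested when, in 1 or more groups, each array had 0.5 or more of the probe's spots well above background (29334 probes, 13 of the 15 for members). Per array 48.3% to 54.9% of probes were well above background.

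Probes were named by RefSeq accession (GRCm38.p6), and no positions of probes are given. Where a gene had more than 1 probe, the brightest on average over the 15 arrays stood for it. A single limma 3.58.1 model (R 4.3.3, figures in Python 3.11.15) held all 15 arrays without covariates, with Benjamini-Hochberg adjustment over all tested probes. The authors' methods name limma and the q-value, and the fold-change threshold follows their results. For a bound, each array of the undetected group took its dimmest detected signal, or the probe's own value if higher, and the averages of both groups were subtracted. The scripts were tested on simulated data. Arrays were grouped by their labels. Slide was read from the scanner files. Alternatives were the arrays in the fit, quantile normalization, normexp (offset 50, on the median signal, as the mean signal is not a column used here), the filter, slide and run blocks, a trended prior, the mean of probes, thresholds and leaving out each array. The series-wide table was counted as an alternative too, though its values are the same. The members, gene lists, motifs and the rule for named genes (all members, up to 4 called genes per list and comparison without overlap, and the 3 most similar genes per member) were chosen with earlier results of these data known. In the run check, all 30 pairs of the same run had r over 0.1 after removal of the slide, and 12 of 30 without it. The block of the run alone was added after seeing the data. 1 of the genes that the rule for named genes selects is not reported here.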

Additional observations from a re-analysis of the deposited data

How the results depend on the processing

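No difference that was called, as reported or under an alternative, changed its sign. Among differences called in neither, 30 changed sign, with log2 values of -0.29 to 0.37 before and -0.43 to 0.15 after. Of the single-member results under alternatives, 1106 stayed on their side of the threshold, 22 lost the call, 18 gained it and 24 could not be tested. The 1106 include the fit to the series-wide table, whose values are the same, so that it could not differ. They also include the mean of probes for members with 1 probe, which could hardly move. The number of members called moved by more than 1.5 times as follows. In fits of the 2 compared groups alone it was 0 for IL-1β against control and 0 for IL-1β against TNFα. With no filter on dim probes it was 0 for IL-1β against TNFα. With run and slide as blocks it was 5 for TNFα, 2 for IL-1β and 3 for IL-1β against TNFα, and with the run alone, added after seeing the data, 5 for TNFα and 3 for IL-1β against TNFα. With the mean of all probes of a gene it was 2 for IL-1β against TNFα, and with a minimum fold-change of 2 it was 0 for IL-1β. Leaving out each array in turn gave 2 to 3 members for TNFα, 6 to 9 for TGFß1, 1 to 1 for IL-1β, 0 to 0 for IL-6, 9 to 9 for TNFα against TGFß1 and 0 to 1 for IL-1β against TNFα.

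Over all probes, counts moved by more than 1.5 times from 2948 (TNFα), 5250 (TGFß1), 68 (IL-1β), 17 (IL-6), 3456 (TNFα against TGFß1) and 1377 (IL-1β against TNFα) under these alternatives. They were 4522, 323, 231 and 3081 for TNFα, IL-1β, IL-6 and IL-1β against TNFα with run and slide, 157, 61 and 2390 for the last 3 of these with the run alone, and 106 and 37 for IL-1β and IL-6 with the slide. Fits of 2 groups gave 20, 0 and 722 for IL-1β, IL-6 and IL-1β against TNFα. Normexp gave 3472 for TGFß1, and no filter gave 9 for IL-6 and 886 for IL-1β against TNFα. A minimum fold-change of 2 gave 1586, 2673, 2090 and 801 for TNFα, TGFß1, TNFα against TGFß1 and IL-1β against TNFα. The count was 1847 for TNFα without TNFα 4. For IL-1β it was 40 without control 1, 43 without control 11, 44 without IL-1β 5 and 40 without IL-1β 15. For IL-6 it was 4 without control 1 or control 6 and 6 without IL-6 8, and for IL-1β against TNFα it was 740 without TNFα 4 and 671 without IL-1β 10.

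Fold-changes of dim members shrank with normexp. *Fgf18* lost its TGFß1 call (0.34), while the members named next kept theirs. The log2 values became 1.21 for *Fgf2*, -1.46 for *Fgf10* and 1.62 for *Fgf21* with TGFß1 against control, and -0.89, 1.43, -1.78, -0.64 and -1.82 for *Fgf2*, *Fgf10*, *Fgf21*, *Hgf* and *Areg* in TNFα against TGFß1. With the mean of probes *Fgf10* was -1.83 with TGFß1 and 1.85 in TNFα against TGFß1. The cause of these differences was not tested. Signals near background limit *Fgf2*, *Fgf18*, *Fgf21* and *Hgf*, and the TGFß1 level of *Fgf10*. The groups share no replicate number in the labels, and the run of label numbers was the only pairing fitted.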
